A study of Mus musculus with 13 samples.

Results

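The Ifitm family was followed in Treg cells and in Treg "wannabes", cells that transcribe the Foxp3 locus without making Foxp3 protein. Its 4 members here, Ifitm1, Ifitm2, Ifitm3 and Ifitm10, were found by their symbols in both count tables and are 4 of 24417 genes. They were chosen by their measured values, since Ifitm1 is among the largest risers of activated over resting "wannabes" and results of all 5 groups were known, so their levels and fold changes are given as a description, with no test. All 4 members passed the filter on low counts in both experiments, Ifitm1 only through the groups in which it was high. Against them stand 50 antiviral interferon-stimulated genes and 30 interferon-gamma-induced genes, lists also chosen with earlier results of these data known. The contrast between members and lists is therefore a description too. The remaining family genes Ifitm5, Ifitm6 and Ifitm7 are given at the end.

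RNA was sequenced from cells sorted from spleen and lymph nodes of C57BL/6 mice in 2 experiments. In the first, males were given 4-hydroxytamoxifen (4-OHT) when 14 days old and analyzed at day 21. Control Treg cells (n = 3) came from healthy Foxp3DTR-GFP/yCd4creERT2 mice. Rescued Treg cells (n = 3) came from Foxp3LSL/yCd4creERT2 mice, which per the study were already diseased when treated. Treg "wannabes" (n = 2) came from sick Foxp3LSL/yCd4wt mice, which carry no Cre. The LSL allele holds a floxed Thy1.1 reporter and STOP cassette that abolishes Foxp3 protein, and Cre driven from Cd4 removes it in CD4-expressing cells once 4-OHT is given. In the second experiment, females aged 9 to 11 weeks received 4 doses of diphtheria toxin, the first 7 days and the last 1 day before analysis. Resting "wannabes" (n = 3) came from Foxp3LSL/WTCd4wt mice, whose normal Treg cells persist, and activated "wannabes" (n = 2) from Foxp3LSL/DTRCd4wt mice, whose Foxp3-expressing Treg cells are depleted by the toxin. The series' design text gives the 2 female group sizes the other way round, and the labels of the samples were used. All "wannabes" were gated as Thy1.1+ and Treg cells as Foxp3+Thy1.1-.

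Libraries held between 25558402 and 36660933 counts, so that 3 counts, the floor used below, correspond to 0.0834 to 0.119 CPM, the counts normalised to library size. CPM were scaled with edgeR's trimmed mean of M values (TMM) within each experiment, and levels set side by side across the experiments were therefore normalised separately. The cells carried their labels: Foxp3 lay at 865 to 1110 CPM in rescued Treg cells, 167 to 252 in control Treg cells and 52.8 to 99.8 in the 3 "wannabe" groups, while Thy1 lay at 176 to 327 CPM in "wannabes" and at 36.4 to 46.7 in Treg cells. In the text, replicates are named by their group and number.

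IFITM proteins are small membrane proteins that hinder the entry of enveloped viruses such as influenza A. IFITM1 lies largely at the cell surface, and IFITM2 and IFITM3 largely in endosomes, and their genes are classic targets of both type I interferons and interferon gamma. They are made by many cell types, T cells among them, whereas IFITM10 is little studied and is not regarded as interferon-induced.

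The genes Ifitm5, Ifitm2, Ifitm1, Ifitm3 and Ifitm6 lie in this order within 68967 bases of chromosome 7 (GRCm38, GENCODE), from 140948958 to 141017924. Ifitm2 occupies 140954837 to 140955987 on the minus strand, Ifitm1 140967221 to 140969825 on the plus strand and Ifitm3 141009586 to 141010770 on the minus strand. Ifitm10 lies 1307913 bases beyond the cluster on the same chromosome, from 142325837 to 142373753 on the minus strand. The promoter windows of Ifitm2, Ifitm1 and Ifitm3 are shown because these members are set below against genes chosen for their response to interferon. They run from 250 bases before to 50 after the start site (RefSeq, GRCm38.p6), at chr7:140955912-140956211 (minus strand) for Ifitm2, chr7:140967826-140968125 (plus strand) for Ifitm1 and chr7:141010695-141010994 (minus strand) for Ifitm3, each written 5′ to 3′ along its gene. Capitals mark matches on either strand to GAAANNGAAA, the core of an interferon-stimulated response element (ISRE), and to TTCNNNGAA, the palindromic gamma-activated site (GAS), where N is any base.
Ifitm2: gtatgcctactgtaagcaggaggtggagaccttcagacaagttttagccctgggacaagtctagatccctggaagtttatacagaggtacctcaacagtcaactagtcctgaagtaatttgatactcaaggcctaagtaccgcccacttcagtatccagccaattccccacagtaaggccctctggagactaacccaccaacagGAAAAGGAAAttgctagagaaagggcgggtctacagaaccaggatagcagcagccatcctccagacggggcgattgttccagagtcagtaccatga
Ifitm1: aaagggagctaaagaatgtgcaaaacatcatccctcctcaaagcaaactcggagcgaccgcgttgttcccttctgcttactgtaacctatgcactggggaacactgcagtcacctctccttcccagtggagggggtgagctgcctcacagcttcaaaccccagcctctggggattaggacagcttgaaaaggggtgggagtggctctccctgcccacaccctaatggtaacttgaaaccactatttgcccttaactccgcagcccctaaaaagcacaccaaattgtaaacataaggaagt
Ifitm3: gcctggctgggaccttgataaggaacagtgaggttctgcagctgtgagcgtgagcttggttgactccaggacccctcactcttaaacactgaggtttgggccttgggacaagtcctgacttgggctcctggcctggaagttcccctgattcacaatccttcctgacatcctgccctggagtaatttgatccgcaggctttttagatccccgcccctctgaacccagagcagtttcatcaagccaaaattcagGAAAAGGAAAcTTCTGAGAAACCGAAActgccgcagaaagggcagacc
Counting the start site as base 1, Ifitm3 held an ISRE match from base 3, a GAS match from base 14 and a second ISRE match from base 20, which overlaps the GAS match. Ifitm2 held 1 ISRE match, whose first base lies 46 bases upstream of the start site, and the same 10 letters, GAAAAGGAAA, stood in Ifitm2 and at base 3 of Ifitm3. Neither motif was found in these letters in the Ifitm1 window or in the 3 listed Ifitm10 windows. The Ifitm1 window begins at 140967826, inside the gene as GENCODE places it from 140967221. The sequence upstream of that GENCODE start was not searched. An ISRE match occurred in 3.44% and a GAS match in 8.3% of 32851 mouse promoter windows of the same length. Per gene, an ISRE match was found for 15 of 36 antiviral genes with a listed promoter (41.7%) and 12 of 21 interferon-gamma-induced genes (57.1%), beside 3.99% of 27025 genes. A GAS match was found for 7 of the 36 (19.4%) and 9 of the 21 (42.9%), beside 9.55% of the 27025 genes. A match is a string of letters and not a measured binding site.

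Ifitm2 was the most abundant member per length in 3 of the 5 groups and separated all groups within each experiment. In males it was counted at 2.94, 7.17 and 4.80 CPM in control Treg replicates 1 to 3, at 29.0, 18.4 and 13.0 CPM in rescued Treg cells and at 113 and 114 CPM in Treg "wannabes". The 3 male groups did not overlap, with control Treg cells lowest and "wannabes" highest. In females Ifitm2 stood at 2.06, 2.23 and 1.54 CPM in resting and at 134 and 139 CPM in activated "wannabes". All activated libraries thus lay far above all resting libraries. The log2 fold change was 2.01 ± 0.36 (SE) for rescued over control Treg cells, -4.51 ± 0.41 for control Treg cells over Treg "wannabes" and -2.49 ± 0.38 for rescued Treg cells over "wannabes". In females it was 6.13 ± 0.16 for activated over resting "wannabes", 70.2-fold on the ratio of mean CPM. The 3 male comparisons share libraries and are not independent of each other. Here and below, bulk counts cannot tell fewer expressing cells from less RNA per cell.

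Ifitm1 was not detected in control Treg cells. All 3 control Treg libraries held 0 counts, which allows up to 0.0834 to 0.0981 CPM, the value of 3 counts. Rescued Treg cells held 2.42, 0.435 and 0.924 CPM (84, 11 and 33 counts), and Treg "wannabes" 2.06 and 2.36 CPM (72 counts each). The rescued and "wannabe" libraries overlapped and all lay above the control libraries. Against the mean of the per-library floors, rescued Treg cells were at least 14.1-fold and "wannabes" at least 24.8-fold higher than control Treg cells. Without rescued Treg replicate 1 the first of these bounds was 7.61. Between rescued Treg cells and "wannabes" the log2 fold change was -0.81 ± 1.18 (SE), and -1.69 ± 1.43 without rescued Treg replicate 1, which held 84 of the 128 counts of its group.

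In females Ifitm1 was at 0.0354, 0.0343 and 0.315 CPM in resting "wannabes" (1, 1 and 9 counts) and at 28.5 and 31.9 CPM in activated "wannabes" (895 and 993 counts). The log2 fold change was 7.84 ± 0.51 (SE), a ratio of mean CPM of 236, whose denominator rests on 11 counts in all. Resting replicate 3 held 9 of these 11 counts, and without it activated "wannabes" were at least 289-fold above the floor. By fitted rise Ifitm2 held rank 26 and Ifitm3 rank 115 of 13166 genes, in a comparison that had entered their choice. Activated "wannabes" also held more Ifitm1 than any male group, between 28.5 and 31.9 CPM beside at most 2.42 CPM, with age, sex and treatment differing between the experiments.

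**Figure D1:**
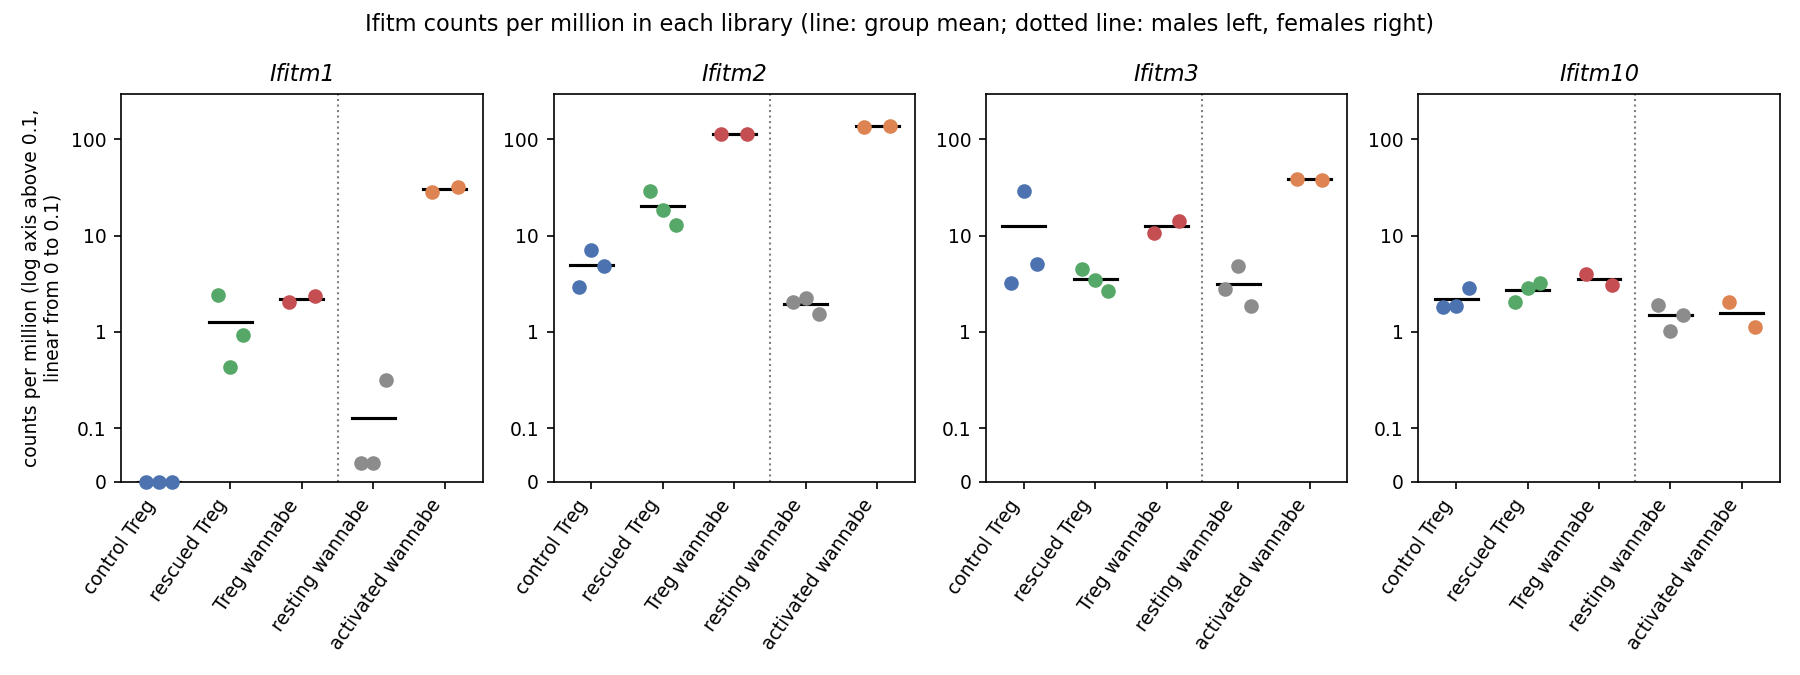
CPM of the 4 members in each library (points) with the group mean (line), on an axis that is logarithmic above 0.1 and linear from 0 to 0.1. Ifitm2 rises from control Treg cells over rescued Treg cells to Treg "wannabes" without overlap, Ifitm1 is at 0 in all 3 control Treg libraries, control Treg replicate 2 stands apart at 29.3 CPM for Ifitm3, and Ifitm10 stays between 1.03 and 3.95 CPM.

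Ifitm3 did not follow Ifitm1 and Ifitm2 in males. It was counted at 3.24, 29.3 and 5.03 CPM in control Treg cells, at 4.55, 3.48 and 2.66 CPM in rescued Treg cells and at 10.7 and 14.2 CPM in Treg "wannabes". Control Treg replicate 2 lay above every other male library, and the control group overlapped both others, rescued Treg cells also without this library and "wannabes" only with it. Rescued Treg cells lay below "wannabes" without overlap, with a log2 fold change of -1.80 ± 0.75 (SE). Rescued over control Treg cells gave -1.81 ± 0.70, and control Treg cells over "wannabes" 0.01 ± 0.75. Without control Treg replicate 2 these became -0.22 and -1.59. The same library had the highest level of the antiviral list, a mean log2 CPM of 7.06 beside 5.87 and 6.22 in the other control Treg libraries.

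In females Ifitm3 went with Ifitm1 and Ifitm2. It stood at 2.76, 4.88 and 1.86 CPM in resting and at 39.0 and 38.2 CPM in activated "wannabes", without overlap. The log2 fold change was 3.60 ± 0.35 (SE), a 12.2-fold ratio of means, smaller than for Ifitm2 and Ifitm1. Resting replicate 2, the highest of its group for Ifitm3, also held the highest antiviral list level of the resting libraries, a mean log2 CPM of 6.13 beside 5.60 and 5.61.

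Ifitm10, outside the cluster, had the narrowest range of the 4 members over all libraries, from 1.03 to 3.95 CPM. It lay at 1.83, 1.86 and 2.85 CPM in control Treg cells, 2.04, 2.88 and 3.25 in rescued Treg cells and 3.95 and 3.05 in Treg "wannabes". Control Treg cells were below "wannabes" without overlap, at a log2 fold change of -0.68 ± 0.62 (SE), and the other male comparisons overlapped, at 0.32 ± 0.56 for rescued over control Treg cells and -0.36 ± 0.62 for rescued Treg cells over "wannabes". Resting "wannabes" held 1.91, 1.03 and 1.51 CPM and activated "wannabes" 2.04 and 1.13 CPM, which overlapped, with a log2 fold change of 0.09 ± 0.44.

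Counted over the family, 2 of 4 members (Ifitm1 and Ifitm2) were higher without overlap in rescued than in control Treg cells, where 12.6% of the 14925 genes tested were, and none was lower, beside 11.6%. Control Treg cells were below Treg "wannabes" without overlap for Ifitm1, Ifitm2 and Ifitm10, beside 20.7% of genes, and above them for no member, beside 25.4%. Rescued Treg cells were below "wannabes" for Ifitm2 and Ifitm3, beside 20.7%, and above them for no member, beside 22%. Activated "wannabes" were above resting "wannabes" for Ifitm1, Ifitm2 and Ifitm3, beside 27.9% of 13166 genes, and below them for no member, beside 28.6%. Since the members were chosen with these groups in view, nothing is read from these counts.

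Per kilobase of annotated exon the order of the members differed between groups. Activated "wannabes" held 208 ± 4.69 CPM per kb of Ifitm2 (SD, n = 2), 56.9 ± 0.831 of Ifitm3, 27.6 ± 2.22 of Ifitm1 and 0.330 ± 0.135 of Ifitm10, in an order without overlap. Treg "wannabes" had the same order, with 173 ± 0.598 CPM per kb of Ifitm2 (SD, n = 2), 18.4 ± 3.56 of Ifitm3, 2.02 ± 0.195 of Ifitm1 and 0.732 ± 0.133 of Ifitm10. In rescued Treg cells Ifitm2 (30.7 ± 12.5 CPM per kb, SD, n = 3) lay above Ifitm3 (5.25 ± 1.40), and Ifitm1 (1.15 ± 0.945) overlapped with Ifitm10 (0.569 ± 0.129). In control Treg cells Ifitm3 (18.5 ± 21.5 CPM per kb, SD, n = 3) and Ifitm2 (7.59 ± 3.24) overlapped, and Ifitm10 stood at 0.455 ± 0.121 and Ifitm1 at 0. In resting "wannabes" Ifitm3 (4.67 ± 2.29 CPM per kb, SD, n = 3) and Ifitm2 (2.97 ± 0.549) overlapped too, above Ifitm10 (0.310 ± 0.0923) and Ifitm1 (0.117 ± 0.148). The exon lengths are those of GENCODE and may differ from those used in counting.

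Parts of these genes cannot be told apart by short reads. Of all 50-base strings in its transcripts, Ifitm2 shared 48.5% with another gene's transcripts, mainly with the read-through gene Gm45717 that spans Ifitm5 and Ifitm2 and with gene copies such as Gm11951 and Gm8865, none of which was analysed here. Ifitm3 shared 10% and Ifitm1 5.02%, of which 15 strings are common to Ifitm1 and Ifitm3 and 20 to Ifitm2 and Ifitm3. Coding sequences were 75.8% identical between Ifitm2 and Ifitm3, 63.5% between Ifitm1 and Ifitm3 and 60.2% between Ifitm1 and Ifitm2. How reads that match several genes were counted is not given in the sources used here, so the level of Ifitm2 in particular is uncertain.

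Of the antiviral genes called in males between control Treg cells and either other group, every one was higher in control Treg cells, the group in which Ifitm1 and Ifitm2 were lowest. The list holds interferon-induced sensors, nucleases and restriction factors such as the Oas, Mx and Ifit genes, and all 50 were tested. In rescued over control Treg cells 0 rose and 16 fell (edgeR quasi-likelihood test, adjusted p under 0.05 over all genes), where 1.43% of all genes rose and 0.864% fell. At an unadjusted p under 0.05, 0 were higher and 28 lower, and DESeq2 called 0 higher and 23 lower. Their median log2 fold change was -0.75, beside -0.03 over all genes tested. Those that fell most were Oasl1, an OAS-like gene, from 33.6 to 1.64 CPM (log2 fold change -4.35 ± 0.73, edgeR adjusted p = 0.016), and Mx2, an antiviral GTPase, from 21.0 to 1.30 CPM (-4.01 ± 0.57, edgeR adjusted p = 0.00684). The number that fell was 7 without control Treg replicate 2, 10 without control Treg replicate 3, and 6, 6 and 5 without rescued Treg replicates 1, 2 and 3. Oasl1 lost its call without any of the rescued Treg replicates, with a highest adjusted p of 0.0628, while Mx2 kept it without each library in turn.

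Between control Treg cells and Treg "wannabes" 16 antiviral genes were higher in control Treg cells and 0 lower in the edgeR test, beside 9.92% and 6.27% of all genes. At an unadjusted p under 0.05, 29 were higher and 2 lower, and DESeq2 called 23 higher and 0 lower. The median was 0.72, beside 0.09 over all genes. Oas1a, a 2′-5′ oligoadenylate synthetase, lay at 36.9 CPM in control Treg cells and 1.78 in "wannabes" (log2 fold change 4.38 ± 0.97, edgeR adjusted p = 0.0115). Oasl1 lay at 33.6 CPM in control Treg cells and at 0 counts in both "wannabe" libraries. The number called was 9 without control Treg replicate 2 and 10 without Treg "wannabe" replicate 2. Ifitm2 went the other way between these same libraries, being 22.8-fold higher in "wannabes" on the ratio of means.

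Few antiviral genes were called between rescued Treg cells and Treg "wannabes". Of 50 genes 1 was higher and 3 lower in rescued Treg cells by edgeR, beside 10% and 4.06% of all genes, and the median was -0.23, beside 0.00. The 3 lower genes were Oasl2 (3.42 against 16.0 CPM, log2 fold change -2.22 ± 0.60, edgeR adjusted p = 0.0313), Oas3 (14.6 against 42.7 CPM, -1.54 ± 0.45, edgeR adjusted p = 0.045) and Lgals3bp (201 against 382 CPM, named after its values were seen), and the higher gene was Oasl1 (1.64 CPM against 0 counts). Without rescued Treg replicate 1, rescued Treg replicate 2 or Treg "wannabe" replicate 2 the number called was 1. Oas3 also lost its call without control Treg replicate 3 or Treg "wannabe" replicate 1, and Oasl2 without rescued Treg replicate 3.

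**Figure D2:**
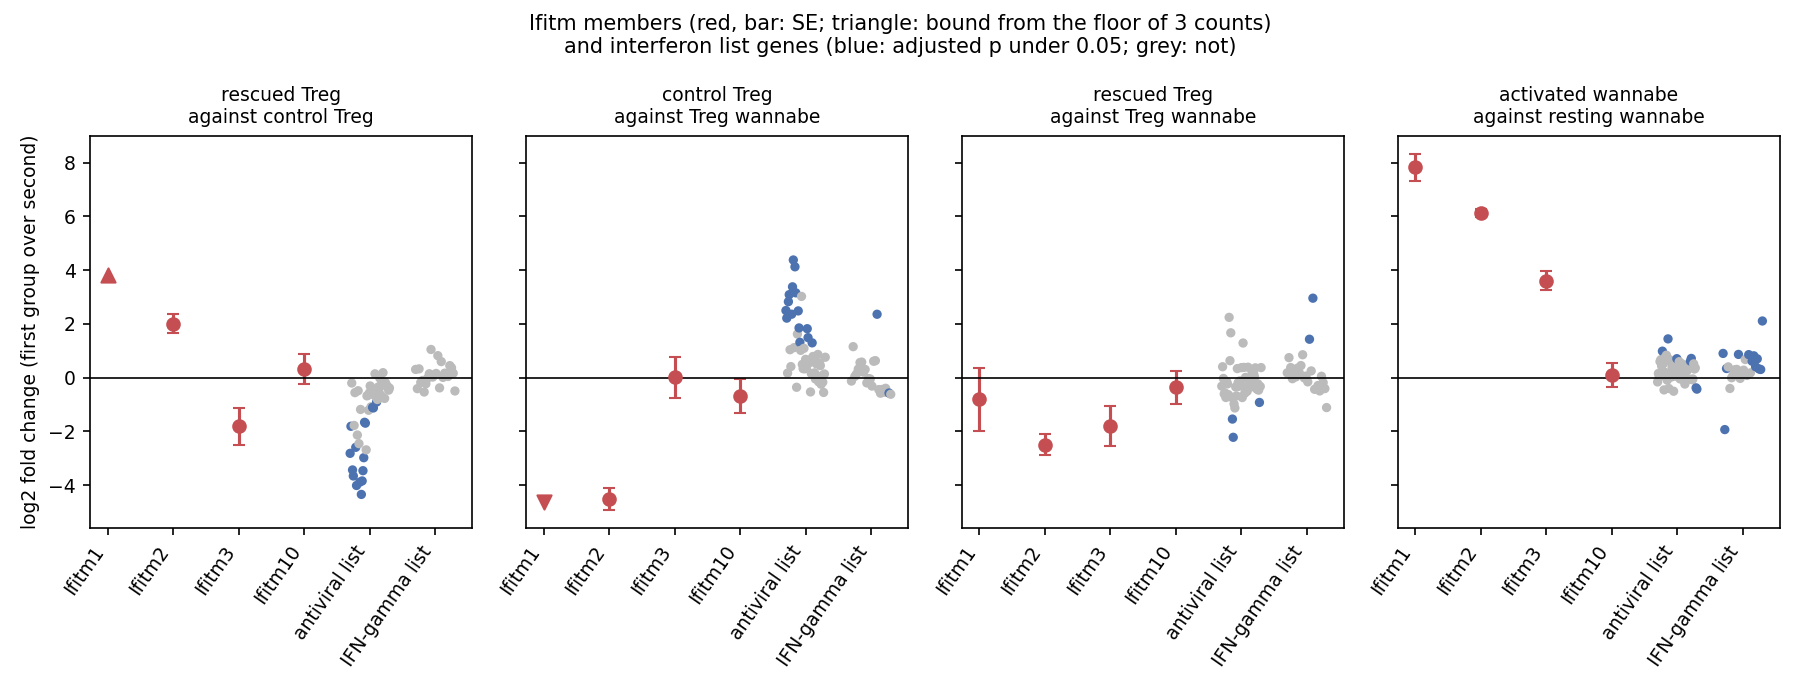
Log2 fold change of the members (red, bars are the SE, triangles are bounds against the floor of 3 counts) and of the tested genes of the antiviral and interferon-gamma lists (blue where the edgeR adjusted p is under 0.05, grey otherwise) in the 4 comparisons; Oasl1 is left off both comparisons with Treg "wannabes", whose libraries hold 0 counts of it. In the first panel Ifitm2 stands at 2.01 while the antiviral genes extend downward to -4.35. In the last panel Ifitm1 and Ifitm2, chosen with this comparison known, stand at 7.84 and 6.13 while the largest interferon list value is 2.11.

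In females the changes of the antiviral genes were small beside those of Ifitm1, Ifitm2 and Ifitm3, members chosen with their rise in this comparison known. Of 50 genes 5 were higher and 2 lower in activated "wannabes" by edgeR, beside 11.3% and 11.2% of all genes, and the median log2 fold change was 0.32, beside -0.01. The largest rises were those of Oas3 from 33.9 to 92.2 CPM (1.44 ± 0.31, edgeR adjusted p = 0.0205) and of the exonuclease gene Isg20 from 36.7 to 72.7 CPM (0.99 ± 0.22, edgeR adjusted p = 0.0226). The other higher genes were Epsti1, Zbp1 and Ly6e, with log2 fold changes of 0.72, 0.71 and 0.62, named after their values were seen. The lower genes were Pnpt1, which codes for a mitochondrial RNA-degrading enzyme (-0.43 ± 0.10, edgeR adjusted p = 0.0256), and Znfx1, which codes for an RNA helicase (-0.38 ± 0.08, edgeR adjusted p = 0.0198). The number called was 0 without activated replicate 1 and 1 without activated replicate 2, and rose to 27, of which 25 were higher, without resting replicate 2. Oas3, Isg20, Pnpt1 and Znfx1 each lost the call without either activated library.

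The interferon-gamma-induced genes, among them guanylate-binding proteins, immunity-related GTPases and antigen-processing genes, were tested for 24 of 30 genes. Of the 6 others, Gbp3, Gbp6, Gbp7, Igtp and Tgtp1 had exactly 0 counts in every library, while their relatives Gbp4 and Tgtp2 averaged 376 and 352 CPM in control Treg cells, and Cxcl9 was removed by the filter on low counts. A 0 in every library of these tables therefore need not mean that a transcript was absent. Ifitm1, at 0 in control Treg cells, was counted in every library of the other groups. In rescued over control Treg cells 0 were called in either direction by edgeR, beside 1.43% higher and 0.864% lower of all genes; at an unadjusted p under 0.05, 2 were higher and 1 lower, and DESeq2 called 2 higher. The median was 0.13, beside -0.03. Between control Treg cells and Treg "wannabes" 1 was higher and 1 lower, beside 9.92% and 6.27%, with a median of -0.04, beside 0.09. Socs1, a feedback inhibitor of cytokine signalling, was the higher gene, at 45.4 against 8.86 CPM (log2 fold change 2.36 ± 0.57, edgeR adjusted p = 0.0168), and Tapbp, a peptide-loading chaperone, the lower, at 1213 against 1803 CPM (-0.57 ± 0.17, edgeR adjusted p = 0.0464). The number called was 5 without Treg "wannabe" replicate 1 and 1 without any other library of this experiment, and Tapbp lost its call without 6 of the 8 libraries and Socs1 without control Treg replicate 2 or Treg "wannabe" replicate 1. In rescued Treg cells over "wannabes" Socs1 (2.96 ± 0.58, edgeR adjusted p = 0.00628) and the transcription factor gene Irf8 (1.43 ± 0.29, edgeR adjusted p = 0.00717) were higher and none was lower by edgeR, beside 10% and 4.06% of all genes, with 2 lower at an unadjusted p under 0.05 and 0 lower by DESeq2, and 5 genes were called without Treg "wannabe" replicate 1.

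In females, of 24 interferon-gamma-induced genes tested, 11 were higher and 1 lower in activated "wannabes", beside 11.3% and 11.2% of all genes, and the median was 0.32, beside -0.01. The log2 fold changes of those that rose were at most 2.11, beside 3.60 for Ifitm3 and 6.13 for Ifitm2, members chosen with this comparison known. The chemokine gene Cxcl10 rose from 3.22 to 13.9 CPM (log2 fold change 2.11 ± 0.35, edgeR adjusted p = 0.00917), and the guanylate-binding protein gene Gbp2 from 137 to 256 CPM (0.90 ± 0.15, edgeR adjusted p = 0.00944). Gbp2b, a close relative of Gbp2, fell from 79.9 to 20.9 CPM (-1.93 ± 0.15, edgeR adjusted p = 0.000644). Without activated replicate 1 the list had 6 calls and without activated replicate 2 it had 3. Cxcl10 lost its call without either activated library and Gbp2 without activated replicate 2, while Gbp2b kept its call without each library in turn.

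The experiments share no library, so the same genes can be set side by side in both. Of 12972 genes tested in both, 10.6% were higher without overlap in Treg "wannabes" than in control Treg cells and also in activated than in resting "wannabes", as Ifitm1 and Ifitm2 were. Of the 50 antiviral genes, a list chosen with earlier results of these data known, 0 had this pattern, and nothing is read from that. Another 4 of them (8%, beside 4.68% of all genes), Epsti1, Phf11d, Phf11b and Ifi27l2a, were lower in Treg "wannabes" than in control Treg cells and higher in activated than in resting "wannabes", and 3 (6%, beside 10.7% of all genes), Trim25, Oasl1 and Pnpt1, were lower in both. Of the 24 interferon-gamma-induced genes, Psmb8, an immunoproteasome subunit gene, and Tapbp had the pattern of Ifitm1 and Ifitm2, Socs1 and Irf8 were lower in Treg "wannabes" and higher in activated "wannabes", and Gbp2b and Gbp8 were lower in both, each pair being 8.33%.

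**Figure D3:**
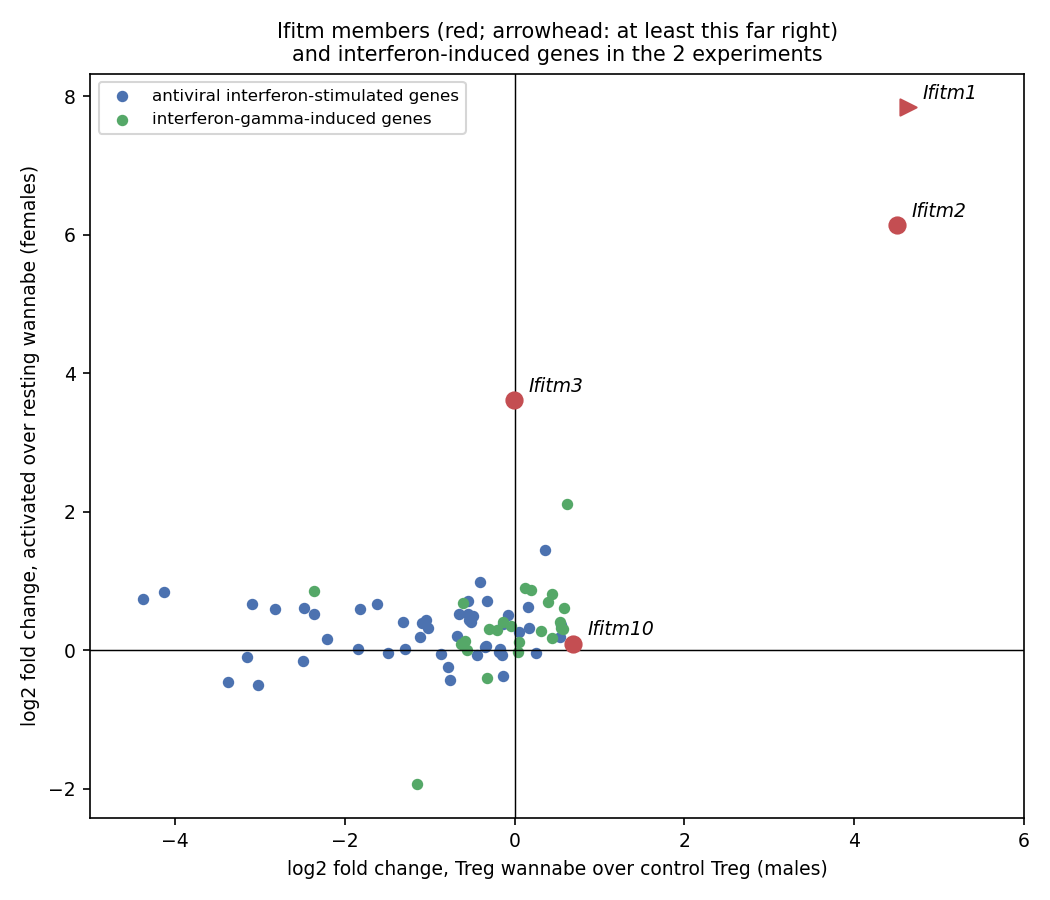
Log2 fold change of Treg "wannabes" over control Treg cells in males (horizontal) against activated over resting "wannabes" in females (vertical), 1 point per gene; the arrowhead for Ifitm1 is a lower bound in the horizontal direction, and Oasl1 is left off. Ifitm1 and Ifitm2 stand apart at the upper right, Ifitm3 lies at 3.60 on the vertical axis near 0 on the horizontal, and the antiviral genes spread to the left with vertical values of at most 1.44.

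Library by library, the antiviral list (mean log2 CPM over its 50 genes) lay at 5.87 to 7.06 in control Treg cells, 4.95 to 5.31 in rescued Treg cells and 5.03 to 5.43 in Treg "wannabes". The 2 last groups overlapped and both lay below control Treg cells, whereas Ifitm2 kept all 3 groups apart. In females the list lay at 5.60 to 6.13 in resting and 6.01 to 6.16 in activated "wannabes", which overlapped only through resting replicate 2, at 6.13. Resting replicates 1 and 3 lay at 5.60 and 5.61. The interferon-gamma list lay between 6.78 and 7.60 in all male libraries, with every pair of groups overlapping, and was at 7.00 to 7.18 in resting and 7.36 to 7.55 in activated "wannabes".

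**Figure D4:**
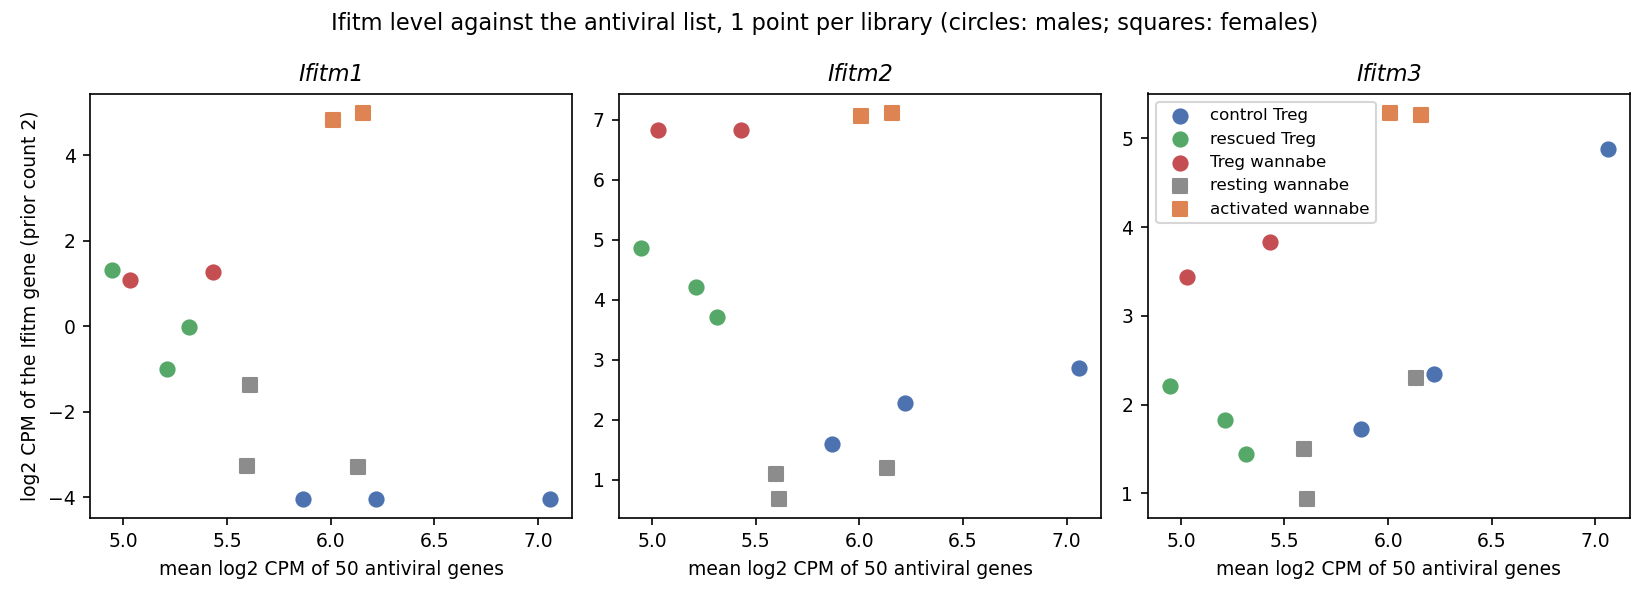
Log2 CPM of Ifitm1, Ifitm2 and Ifitm3 (vertical, prior count 2) against the mean log2 CPM of the 50 antiviral genes (horizontal), 1 point per library; circles are males and squares females, which were normalised separately. Treg "wannabes" combine high Ifitm2 with a list level of 5.03 to 5.43 and control Treg cells low Ifitm2 with 5.87 to 7.06, and the control Treg library at 7.06 is also the highest male library for Ifitm3.

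The interferons and their signalling chain were listed as 13 genes. Ifnb1 and Ifna4, type I interferon genes, had 0 counts in every library. Ifng, which codes for interferon gamma, averaged 3.43 CPM in control Treg cells, 12.3 in rescued Treg cells and 7.83 in Treg "wannabes", and 7.06 in resting and 15.3 in activated "wannabes", with edgeR adjusted p of 0.0845 for rescued over control Treg cells and 0.0711 for activated over resting. Of 11 tested genes of this list 0 were called in rescued over control Treg cells by edgeR, with 2 higher and 4 lower at an unadjusted p under 0.05, and 1 higher and 2 lower by DESeq2. In control Treg cells over Treg "wannabes" 3 were called, in rescued Treg cells over "wannabes" 4 and in activated over resting "wannabes" 3. Of all genes 2.3%, 16.2%, 14.1% and 22.5% were called in these 4 comparisons. The receptor chain gene Ifnar2 was higher in control Treg cells (177 CPM) and rescued Treg cells (122 CPM) than in "wannabes" (55.1 CPM), with log2 fold changes of 1.68 ± 0.25 (edgeR adjusted p = 0.00177) and 1.14 ± 0.24 (edgeR adjusted p = 0.00955). Jak1, the kinase shared by both receptors, was higher by 1.24 ± 0.16 and 1.38 ± 0.16 (edgeR adjusted p = 0.00105 and 0.0004). These 4 calls held without each library in turn, apart from Ifnar2 in rescued Treg cells without Treg "wannabe" replicate 1 (edgeR adjusted p = 0.0518). Ifnar1 (0.63 ± 0.17, edgeR adjusted p = 0.0258) was higher in control Treg cells than in "wannabes", and in rescued Treg cells Ifngr1 (0.70 ± 0.19, edgeR adjusted p = 0.0311) was higher and Jak2 (-0.79 ± 0.22, edgeR adjusted p = 0.0348) lower than in "wannabes", and each of these 3 calls was lost without at least 4 of the 8 libraries in turn. In activated over resting "wannabes" Ifngr1, the ligand-binding chain of the interferon gamma receptor, rose by 0.85 ± 0.11 on the log2 scale (edgeR adjusted p = 0.00312) and kept its call without each library. Jak2 (0.96 ± 0.22, edgeR adjusted p = 0.0257) also rose there, a call lost without either activated library or resting replicate 2.

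Of the 10 genes listed as partners or modifying enzymes of IFITM proteins, 9 were tested. In rescued over control Treg cells 0 were called by edgeR, with 1 higher and 3 lower at an unadjusted p under 0.05, and DESeq2 called 2 lower. In control Treg cells over Treg "wannabes" 2 were called, in rescued Treg cells over "wannabes" 3 and in activated over resting "wannabes" 2, beside the shares of all genes just given. Zdhhc20, a palmitoyltransferase gene, was higher in control Treg cells than in Treg "wannabes" (log2 fold change 0.83 ± 0.24, edgeR adjusted p = 0.0368) and lower in activated than in resting "wannabes" (-0.38 ± 0.08, edgeR adjusted p = 0.0202), the opposite direction to Ifitm2 in both. The first call was lost without any control Treg replicate or Treg "wannabe" replicate 2, and the second without either activated library. Vapa, which codes for a membrane contact protein that binds IFITM3, was higher in rescued Treg cells than in "wannabes" (2.40 ± 0.40, edgeR adjusted p = 0.0024) a call kept without each library in turn. It was also higher in control Treg cells than in "wannabes" (1.62 ± 0.38, edgeR adjusted p = 0.0162), as was the kinase gene Fyn in rescued Treg cells (1.22 ± 0.30, edgeR adjusted p = 0.0189), and both of these calls were lost without Treg "wannabe" replicate 2. Cd9, a tetraspanin gene, was lower in the same comparison (-1.25 ± 0.24, edgeR adjusted p = 0.00533), also kept without each library, and lower in activated than in resting "wannabes" (-0.78 ± 0.13, edgeR adjusted p = 0.00986), a call lost without either activated library.

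Of the remaining family genes, Ifitm6 had a pattern like that of Ifitm1 at lower counts. It had 0 counts in all control Treg libraries, 3, 0 and 10 counts in rescued Treg cells and 24 in each Treg "wannabe" library, at least 8.26-fold more than the floor of the control Treg libraries. Resting "wannabes" held 2, 1 and 2 counts and activated "wannabes" 37 and 24, at least 9.31-fold above the floor, given without a test because only the activated libraries took it past the filter on low counts. Ifitm5, a gene of bone-forming cells, held 0 to 30 counts in every library and Ifitm7, on chromosome 16, 0 or 1.

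**Figure D5:**
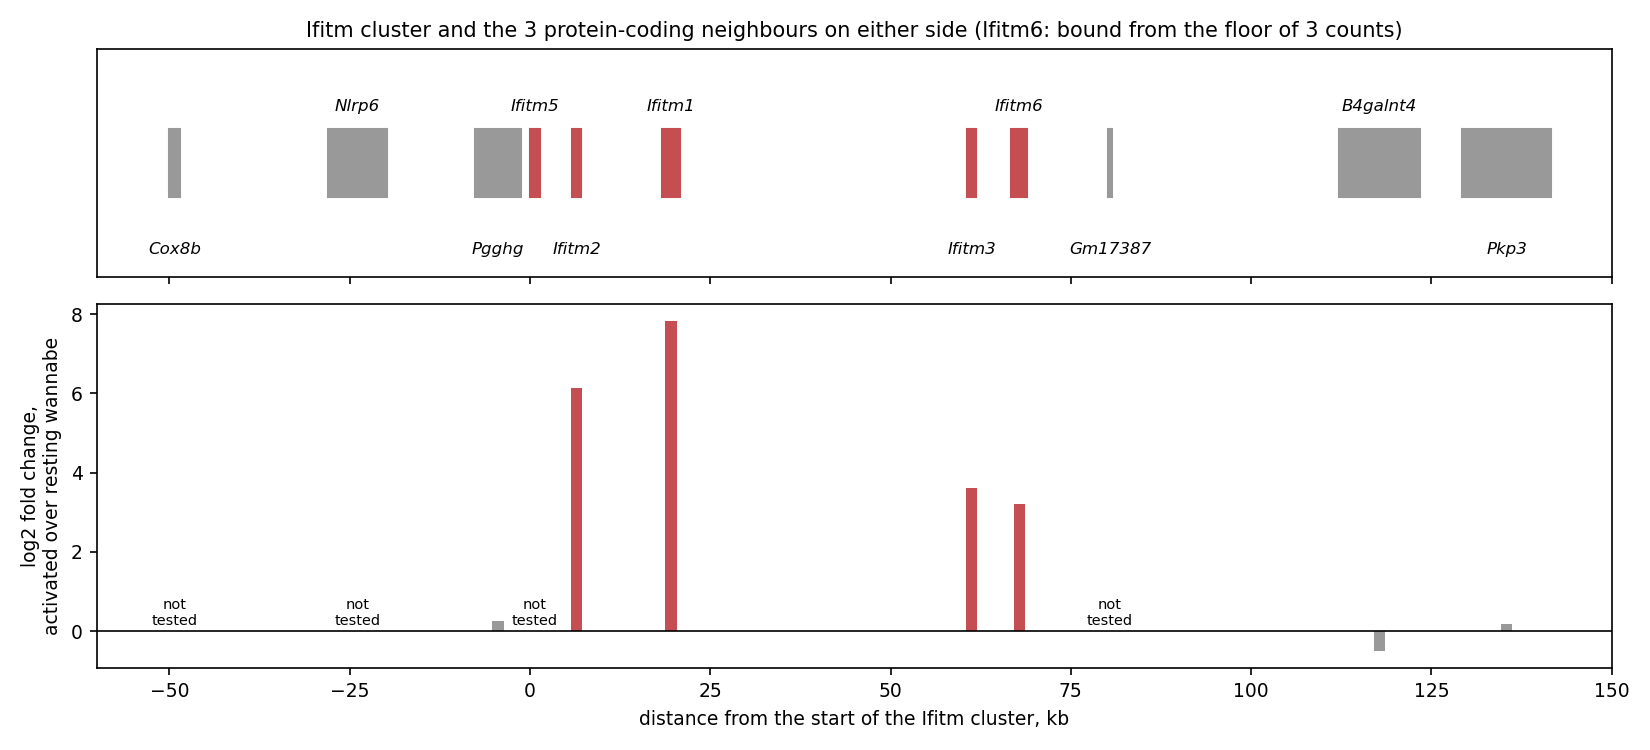
The Ifitm cluster (red) and the 3 nearest protein-coding genes on either side (grey) by distance from the cluster's start in kb, drawn to scale above, and below them the log2 fold change of activated over resting "wannabes"; the read-through gene Gm45717 is left off. Ifitm2, Ifitm1 and Ifitm3 stand at 6.13, 7.84 and 3.60, Ifitm6 at a bound computed from the floor, and the tested neighbours between -0.51 and 0.24.

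Of the 6 protein-coding genes flanking the cluster 3 were tested. Pgghg, 1294 bases before Ifitm5, had log2 fold changes between -0.39 and 0.24 in the 4 comparisons and was never called. B4galnt4 and Pkp3, 43180 and 60294 bases beyond Ifitm6, were higher in rescued than in control Treg cells (1.52 ± 0.31 and 0.77 ± 0.16, edgeR adjusted p = 0.0285 and 0.0291), and Pkp3, a plakophilin gene, was lower in control Treg cells than in Treg "wannabes" (-0.72 ± 0.17, edgeR adjusted p = 0.0169). Neither was called in activated over resting "wannabes", at -0.51 ± 0.33 and 0.18 ± 0.17. All 3 calls were lost without control Treg replicate 2 or 3, and each without further libraries. Cox8b and Nlrp6 were removed by the filter on low counts, and Gm17387 was not analysed here.

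The genes most like each member were ranked by the lower of their Pearson correlations of log2 CPM over the 8 male and the 5 female libraries, among 10240 genes; the points share 5 groups, and the values are descriptions. For Ifitm2 they were 2310039H08Rik, Myo6, Cisd3, Hirip3 and Cdkn1a, with lower correlations of 0.977 to 0.988. For Ifitm1 they were Kremen2, Hadh, Pdlim4, Litaf and Gprin3, at 0.958 to 0.974. For Ifitm3 they were Ly6c2, Slc14a1, Tor3a, Tmem222 and Pdzk1ip1, at 0.822 to 0.879, of which Tor3a is a gene of the antiviral list. For Ifitm10 the values reached no more than 0.824. No gene was shared between these sets of 5, and no gene of the interferon-gamma list was among them.

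Markers of other cells were summed per library. The 5 T cell genes summed to between 3643 and 5911 CPM in every library. The 6 neutrophil genes summed to at most 1.00 CPM in any library, with S100a8 and S100a9 at 0 in both activated and both Treg "wannabe" libraries. The 7 monocyte and macrophage genes summed to 5.44 to 9.39 CPM in activated and 1.42 to 5.15 in resting "wannabes", without overlap, and to 4.59 to 11.6, 5.45 to 13.4 and 3.32 to 6.67 in control Treg cells, rescued Treg cells and Treg "wannabes", with Cd14 at 0 in control Treg cells, Treg "wannabes" and activated "wannabes". Of these genes Itgam reached 10.4 CPM in control Treg cells, while Cd68 was apart as Ifitm1 was, at 0.229 to 0.695 CPM in control Treg cells, 3.08 to 5.12 in rescued Treg cells and 0.917 to 5.68 in Treg "wannabes", and at 0.425 to 1.16 in resting and 1.90 to 2.13 in activated "wannabes". The 5 dendritic cell genes summed to 6.75 to 8.04 CPM in activated and 3.30 to 4.40 in resting "wannabes", and to 0.892 to 1.93, 2.17 to 3.72 and 4.20 to 7.36 in control Treg cells, rescued Treg cells and Treg "wannabes", the same order as Ifitm2. Most of the dendritic sum in Treg "wannabes" and in activated "wannabes" was Xcr1, and Itgax, a defining gene, was at 0 in at least 1 library of every group. The 4 NK cell genes summed to 0.417 to 1.32, 3.08 to 7.35 and 4.61 to 6.83 CPM in control Treg cells, rescued Treg cells and Treg "wannabes", apart as Ifitm1 was, and to 1.47 to 2.58 and 2.26 to 3.41 CPM in resting and activated "wannabes". In control Treg cells, Treg "wannabes" and resting "wannabes" these sums were Klrb1c alone, with Ncr1, Klre1 and Klra8 at 0, and the sort had kept only NK1.1- cells, NK1.1 being the product of Klrb1c. Rescued Treg replicates 2 and 3 held Ncr1 at 2.01 and 1.54 CPM and Klre1 at 0.553 and 0.784, with both at 0 in replicate 1. The 3 plasma cell genes went the other way in females, at 9.20 to 26.3 CPM in resting and 0.732 to 1.03 in activated "wannabes". The 5 B cell genes summed to 22.5 to 24.7 CPM in activated and 9.80 to 12.1 in resting "wannabes", and to 32.0 to 39.7, 38.1 to 42.3 and 34.6 to 44.1 in control Treg cells, rescued Treg cells and Treg "wannabes", which overlapped. Cd79b, which made up most of these sums, was lower in control Treg cells, at 21.7 to 29.9 CPM, than in rescued Treg cells, at 31.9 to 38.1, and Treg "wannabes", at 30.1 to 36.9. The 2 CD8 T cell genes summed to between 9.72 and 27.8 CPM over all libraries. The 4 erythroid genes summed to 0.992 to 17.3 CPM in resting and 1.74 to 1.91 in activated "wannabes". In control Treg cells, rescued Treg cells and Treg "wannabes" they summed to 2.64 to 6.77, 1.93 to 7.94 and 3.38 to 11.8 CPM, which overlapped. The 4 platelet genes summed to at most 3.27 CPM in any library. Of the 6 endothelial and stromal genes, Pecam1 stood at 142 to 306 CPM in every library, highest in control Treg cells. The collagen gene Col1a2 lay at 0, 0.111 and 0 CPM in control Treg cells, at 1.04, 0.830 and 1.65 in rescued Treg cells and at 5.93 and 2.04 in Treg "wannabes", the order of Ifitm2 without overlap, but in females it overlapped, at 0, 0.0343 and 0.350 CPM in resting and 0.191 and 0.708 in activated "wannabes". Pdgfrb stood at 5.79 and 0 CPM in the Treg "wannabe" libraries, and Cdh5 and Kdr at most at 0.356 CPM in any library. Col1a1 lay at 0.403 to 0.687 CPM in control Treg cells, 1.67 to 4.45 in rescued Treg cells and 1.28 to 5.13 in "wannabes", and at 0 to 0.755 in resting and 1.88 to 1.96 in activated "wannabes". The part of these cells in the levels of the Ifitm genes was not tested.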

How the data were processed

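RNA was sequenced from 13 sorted-cell libraries. Per the study's methods, the authors made them with SMART-Seq v4, aligned paired reads with STAR (2.7.3a in the submitters' processing notes) to GRCm38 and deposited raw counts per gene. The counting annotation, strand setting and treatment of multi-mapped reads are not given in the sources used here. Columns of the male table were matched to samples by the reporter or allele in their names, as the methods sorted them. Replicates were described as biological. Male (8 libraries) and female (5) tables were fitted apart: edgeR 4.0.16 (R 4.3.3), filterByExpr, TMM, quasi-likelihood tests, Benjamini-Hochberg adjustment over 14925 and 13166 genes, adjusted p under 0.05. The SE beside each edgeR log2 fold change was computed back from the quasi-likelihood F statistic. It is the absolute log2 fold change over the square root of F. The 4 entries without a gene name held at most 0.00841% of counts and were left out. Alternatives were DESeq2 1.42.0, its size factors, no filter, a replicate block, fits of only the groups compared and leaving out each library. Scripts were tested on simulated data. CPM without molecular identifiers, and floors, cover counting error only.

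Named list genes were, per comparison, the 2 largest rises and 2 largest falls among called genes with a mean normalised count over 100 and no overlap between groups. Members, lists and this rule were chosen with earlier results of these data known. Exon lengths came from GENCODE M21 and promoters from RefSeq (GRCm38.p6). A gene of the signalling list is not reported here.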

Additional observations from a re-analysis of the deposited data

How the results depend on the processing

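Of 74 member values under settings other than leaving out a library, 72 moved by less than the spread between replicates. Near 0, Ifitm3 in control Treg cells over Treg "wannabes" turned from 0.01 to -0.03 with DESeq2 and to -0.01 with only the 2 groups compared. DESeq2 called 1195, 3751 and 3316 genes in the 3 male comparisons (rescued over control Treg cells, control Treg cells over "wannabes", rescued Treg cells over "wannabes"), beside 343, 2416 and 2105 by edgeR. In the first, 612 were called with no filter and 580 with only the groups compared. Of the interferon-gamma list DESeq2 called 2 there, and fitting only the 2 groups called 1 for control Treg cells over "wannabes". The causes were not tested.

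Same-numbered libraries did not deviate together (correlations of -0.029 to 0.084), so the numbers do not pair the samples. With the replicate block, 426 and 2045 genes were called in rescued over control Treg cells and in activated over resting "wannabes" (343 and 2958 without it), the interferon-gamma list had 1 and 5 calls in the first 2 male comparisons, Ifitm3 in rescued Treg cells over "wannabes" was -1.40 and Ifitm1 in activated over resting "wannabes" 9.60. No bound for Ifitm1 against control Treg cells was computed under the block.

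Leaving out 1 library in turn gave 114 to 598, 1549 to 2423, 1570 to 1959 and 751 to 3215 called genes in the 4 comparisons, the last falling to 751 and 797 without activated replicates 1 and 2. The antiviral list had 5 to 21, 9 to 18, 1 to 6 and 0 to 27 calls, and the interferon-gamma list 0, 1 to 5, 2 to 5 and 3 to 12. The bound on Ifitm1 was 7.61 to 18.9 for rescued Treg cells and 23.9 to 26.6 for "wannabes" over control Treg cells. Ifitm3 ranged from -2.27 to -0.22 in rescued over control Treg cells and from -1.59 to 0.47 in control Treg cells over "wannabes", and Ifitm10 from -0.40 to 0.45 in activated over resting "wannabes". With 2 libraries in a group, leaving out 1 assumes that the other varies like the remaining groups.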
